A study of Mus musculus with 2 samples.

Results

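The 10 genes described here are regulators, effectors and markers of the epithelial-to-mesenchymal transition (EMT), chosen by name as rows of an expression table that lists 18032 genes. They are 4 transcription factor genes that drive the transition (Snai1, Zeb1, Zeb2 and Twist1), 2 epithelial splicing factor genes (Esrp1 and Esrp2), the epithelial transcription factor gene Ovol2, the intermediate filament gene Vim, and the matrix metalloproteinase genes Mmp2 and Mmp14. All 10 were found. The cEpiSC library came from WT mouse cells converted in culture to epiblast stem cells, the primed state of pluripotency. Before conversion they had grown in 2iLIF; they were plated on fibronectin, kept in 2iLIF for 24 h, and then given activin A (20 ng/ml) and FGF2 (12 ng/ml) in N2B27 for 2 days. The mESC library came from WT ES-E14TG2a embryonic stem cells held in the naive ground state without feeder cells, in N2B27 with LIF (100 units/ml), the ERK pathway inhibitor PD0325901 (1 µM) and the GSK3 inhibitor CHIR99021 (3 µM). Each state has 1 library of polyadenylated RNA, of 19956733 estimated counts for cEpiSC and 19843719 for mESC, so differences lack a replicate check and are given without p-values. State and medium change together and cannot be told apart, and in bulk RNA fewer cells that hold a transcript and less of it per cell cannot be told apart either.

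In EMT, cells of a polarised sheet loosen their junctions and become motile, as epiblast cells do when they enter the primitive streak of the gastrulating embryo. Snai1, Zeb1 and Zeb2 proteins repress junction genes such as Cdh1 through short DNA elements called E-boxes, while Ovol2 represses Zeb1 and holds the epithelial state. Esrp proteins bind nascent RNA and favour epithelial exons, as in Fgfr2, and Zeb proteins repress Esrp genes in turn. Both naive and primed pluripotent cells are regarded as epithelial, so these genes bear on how epithelial identity is kept between the states.

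The members differed in no common direction, and the largest differences lay in Esrp1 and Mmp2, which were higher in cEpiSC. A gene was tested, in the sense of being ranked by size, if it reached 1 CPM (a count divided by its TMM-adjusted library size) in at least 1 library, and was called higher or lower at a 2-fold difference or more. Of the 10 members 9 were tested; Zeb2 was not. Esrp1, Mmp2 and Twist1 were higher in cEpiSC (3 of 9), where 13.6% of all 13243 tested genes were, and Esrp2 was lower (1 of 9), where 9.25% of tested genes were. The other 5 lay within 2-fold. The median log2 ratio of cEpiSC over mESC was -0.45 over the 9 members and -0.02 over all tested genes. Intervals given below are exact 95% intervals that cover counting error only. All 10 members had whole-number counts in both libraries, to within 0.005, so no reads were split between similar loci in a way that left a fraction.

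**Figure D1:**
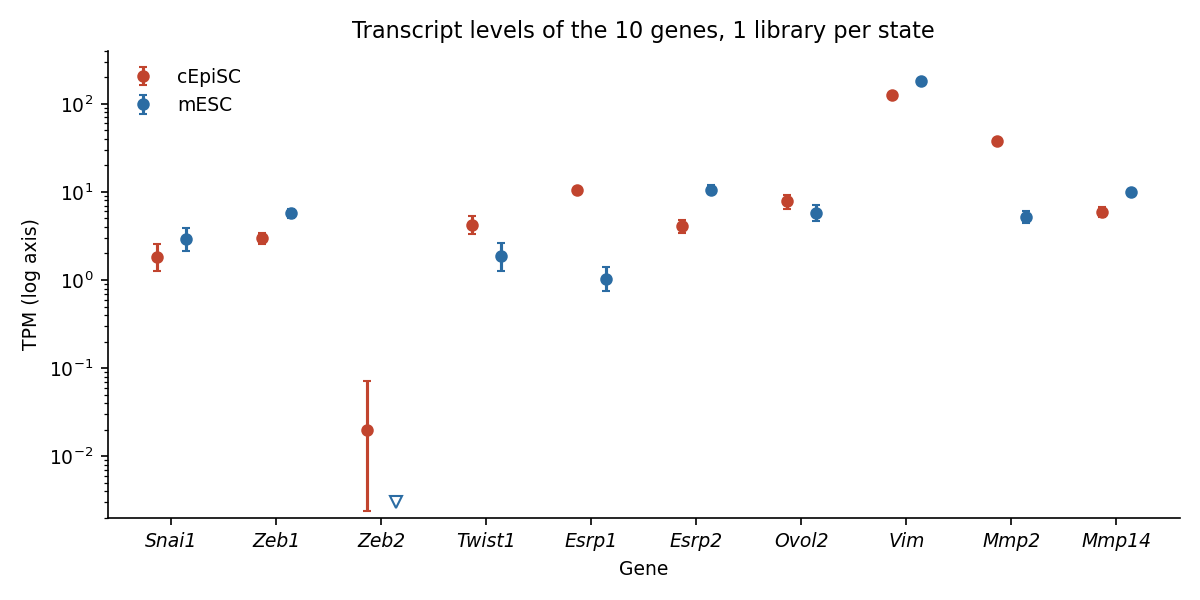
Transcript level of each of the 10 genes in cEpiSC (red, left of each pair) and mESC (blue), in TPM on a log axis, 1 library each; bars are exact 95% Poisson intervals of the counts. The open triangle marks Zeb2 in mESC, which had 0 counts and is placed near the foot of the axis. Vim is highest in both libraries, and Esrp1 and Mmp2 show the widest gaps.

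Levels per unit of transcript length and library depth (TPM) put Vim far above the other members in both libraries. In cEpiSC the order was Vim (127 TPM), Mmp2 (37.6), Esrp1 (10.5), Ovol2 (7.80), Mmp14 (5.90), Twist1 (4.25), Esrp2 (4.11), Zeb1 (2.98), Snai1 (1.83) and Zeb2 (0.02). In mESC it was Vim (179.6 TPM), Esrp2 (10.6), Mmp14 (9.87), Ovol2 (5.78), Zeb1 (5.72), Mmp2 (5.25), Snai1 (2.91), Twist1 (1.87), Esrp1 (1.04) and Zeb2 (listed at 0). Vim led in both, while Esrp1 stood next after Vim and Mmp2 in cEpiSC and next to last in mESC. Counting intervals of neighbours overlapped for Ovol2 with Mmp14, Mmp14 with Twist1, and Twist1 with Esrp2 in cEpiSC. In mESC they overlapped for Esrp2 with Mmp14, among Ovol2, Zeb1 and Mmp2, for Snai1 with Twist1, and for Twist1 with Esrp1. Those neighbours were not ranked apart at this depth.

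Of the 4 EMT transcription factor genes, 3 of them tested, Twist1 alone passed 2-fold, and it was higher in cEpiSC. Twist1 encodes a basic helix-loop-helix factor (Entrez 22160, chromosome 12, 33957671 to 33959831 in GRCm38.p6, plus strand) and had 77 counts in cEpiSC and 31 in mESC, or 3.76 and 1.60 CPM. Its log2 ratio was 1.18 (0.61 to 1.88), an interval that reaches below 2-fold. With TPM or FPKM and a pseudocount of 1 it was within 2-fold (0.87 and 0.80), a scale that shrinks low genes.

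Zeb1, the zinc finger and homeodomain repressor gene (Entrez 21417, chromosome 18, 5591327 to 5775468, plus strand), had 192 counts in cEpiSC and 326 in mESC, 9.38 and 16.8 CPM. It was 1.80-fold lower in cEpiSC, short of the 2-fold rule, with a log2 ratio of -0.84 (-1.11 to -0.58). Snai1, the zinc finger repressor gene (Entrez 20613, chromosome 2, 167538195 to 167542814, plus strand), had 33 counts in cEpiSC and 48 in mESC. Its log2 ratio was -0.59, and with an interval of -1.31 to 0.05 that includes 0 the libraries could not be told apart at this depth. Zeb2 (Entrez 24136, chromosome 2, 44983512 to 45117442, minus strand), the paralogue of Zeb1, had 2 counts in cEpiSC and 0 in mESC. Both counts are at or under a floor of 3 counts per library (0.147 CPM in cEpiSC and 0.155 in mESC), so no fold is given. Zeb1 therefore made up 99.3% of the summed Zeb TPM in cEpiSC (97.6 to 99.9), and all of it in mESC.

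Genes around these factors were described from lists chosen with earlier results of these data known. Counts in every list are to be set beside all 13243 tested genes, of which 13.6% were higher and 9.25% lower. Of 22 further transcription factor genes linked to EMT 15 were tested, of which 6 were higher in cEpiSC, 4 lower and 5 within 2-fold (median 0.04 on the log2 scale). A minimum of 5 CPM left 10 of them, with 4 higher, 2 lower and a median of -0.27. Foxq1, a forkhead factor gene, had 55 counts in cEpiSC and 5 in mESC (log2 ratio 2.96, 2.07 to 5.06), and Snai3, a relative of Snai1, had 180 and 26 (2.62, 2.11 to 3.36). Tbx1, a T-box factor gene, had 33 and 6 (2.06, 1.11 to 3.92). Gsc, the goosecoid homeobox gene active in the primitive streak, was the lowest of the list with 6 counts in cEpiSC and 264 in mESC (-5.13, -7.00 to -4.40). The closest relatives of the members were scarce: Snai2 had 12 and 11 counts and Twist2 had 2 and 2, both named after their values were seen.

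Genes for proteins that Snai1 and Zeb factors recruit lay within 2-fold, with 1 exception. Of 22 cofactor genes, all tested, 21 lay within 2-fold, 1 was higher in cEpiSC and 0 were lower (median -0.17). Among all tested genes 13.6% were higher and 9.25% lower. The exception was Ctbp2, which encodes a corepressor bound by Zeb proteins, at 327 CPM in cEpiSC and 151 CPM in mESC (1.12, 1.05 to 1.18). Genes that act on the stability of Snai1, Zeb or Twist1 proteins gave 2 higher, 3 lower and 16 within 2-fold of 21 tested (median -0.18). Gsk3b, which encodes a kinase that marks Snai1 protein for destruction and is a target of CHIR99021, stood at 54.5 CPM in cEpiSC and 118 CPM in mESC (-1.12, -1.22 to -1.01). The phosphatase gene Ctdsp1 stood at 30.4 and 64.3 CPM (-1.08, -1.22 to -0.94), and its relative Ctdsp2, named to complete the group, had a log2 ratio of -1.01. The higher genes were Prkd1, a kinase gene with reads partly shared with other loci (67 and 22 counts, 1.45), and the deubiquitinase gene Usp51 (43 and 16 counts, 1.25).

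Of 31 genes of signals that act upstream of EMT regulators 27 were tested, of which 8 were higher, 2 lower and 17 within 2-fold (median -0.03). Lef1, a DNA-binding partner of beta-catenin, had 294 counts in cEpiSC and 9 in mESC (4.68). Egr1, an ERK-responsive factor gene, had 80 and 14 (2.28, 1.60 to 3.37), and Myb had 555 and 123 (2.08, 1.81 to 2.39). Wnt3 had 55 and 12 (1.95, 1.20 to 3.15). The lower genes were Tgfbr2, a TGF-beta receptor gene (43 and 115 counts, -1.46), and Stat3 (-1.01), both named to complete the group. The media act on ERK, GSK3, LIF and activin signalling directly, and state and medium are not separable in these values.

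**Figure D2:**
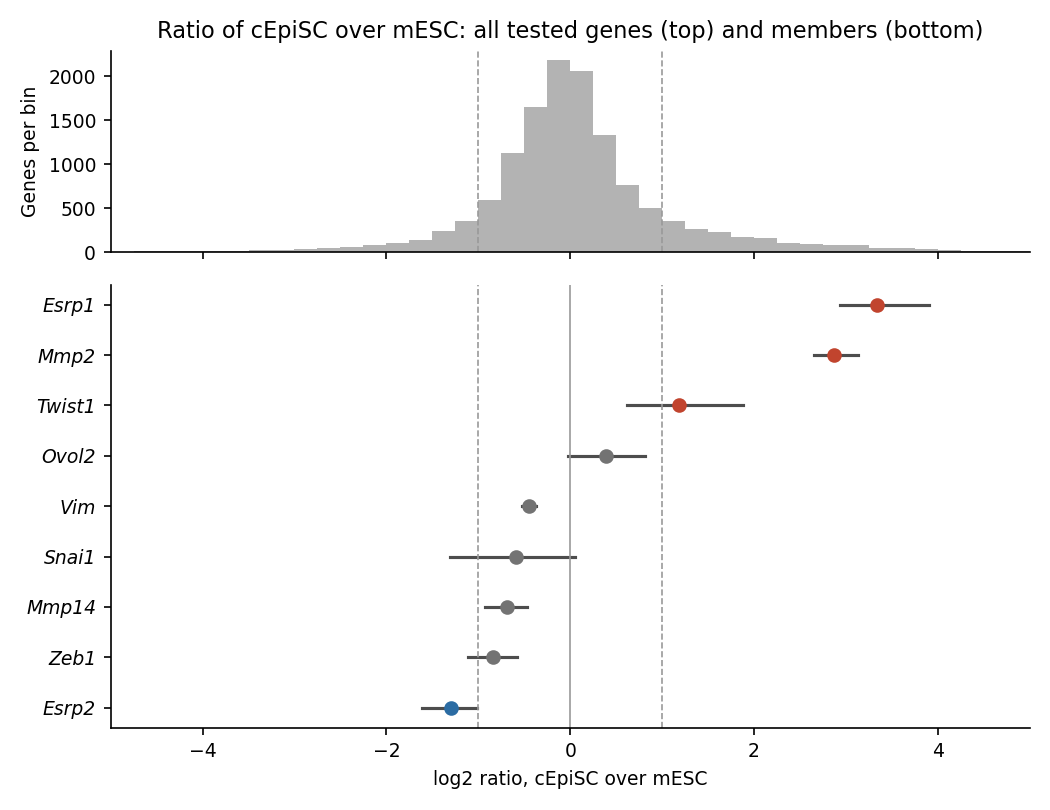
Log2 ratio of cEpiSC over mESC. The top panel is a histogram of the 13243 tested genes and the bottom panel shows the 9 tested members with exact 95% counting intervals; dashed lines mark 2-fold, and the axis is cut at -5 and 5. Esrp1 and Mmp2 lie clear of 2-fold on the right and Esrp2 just clear on the left.

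The splicing factor genes Esrp1 and Esrp2 differed in opposite directions. Esrp1 (Entrez 207920, chromosome 4, 11331933 to 11386783, minus strand) had 458 counts in cEpiSC and 41 in mESC, or 22.4 and 2.12 CPM. It was 10.6-fold higher in cEpiSC, with a log2 ratio of 3.34 (2.94 to 3.90) at percentile 98.3 of all tested genes. Esrp2 (Entrez 77411, chromosome 8, 106130319 to 106137193, minus strand) had 137 counts in cEpiSC and 321 in mESC, or 6.69 and 16.6 CPM, and was 2.48-fold lower in cEpiSC (-1.30, -1.61 to -1.02). With FPKM and a pseudocount of 1 Esrp2 fell just short of 2-fold (-0.98). Its exons overlap those of Nfatc3 on the opposite strand, which had 2897 counts in cEpiSC and 3560 in mESC, and whether the counting used strand is not given in the sources used here, so without strand the reads of shared exons cannot be told apart. Exons of Zeb1, Zeb2, Esrp1 and Ovol2 also overlap other annotated genes on the opposite strand.

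Per unit of length, Esrp1 held 71.9% of the summed Esrp TPM in cEpiSC (67.8 to 75.7) and 8.93% in mESC (6.46 to 12.0). The intervals are exact binomial ones carried over to TPM. The sum of both genes was 14.6 TPM in cEpiSC and 11.65 TPM in mESC, a log2 ratio of 0.33 ± 0.10 (counting SE, 1 library each, TPM scale). The more abundant Esrp gene thus differed between the libraries, while their sum differed by 1.25-fold.

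**Figure D3:**
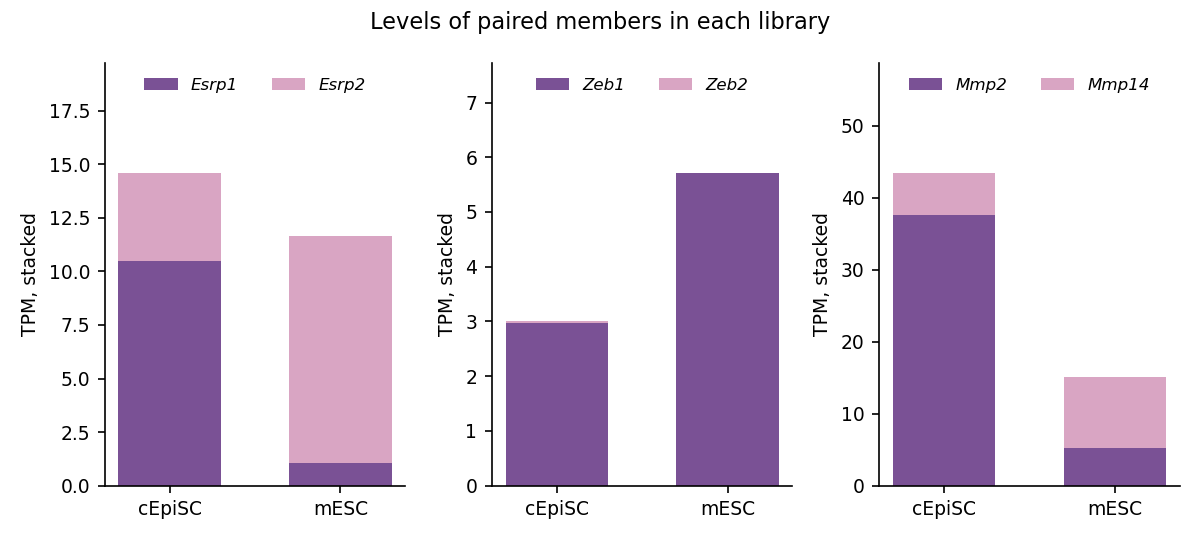
Summed levels of 3 pairs of members, in TPM on linear axes that start at 0, with cEpiSC left and mESC right in each panel, 1 library per bar. Esrp1 makes up 71.9% of the Esrp sum in cEpiSC and 8.93% in mESC, Zeb2 is barely visible in either library, and Mmp2 makes up 86.4% of the pair with Mmp14 in cEpiSC and 34.7% in mESC.

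Other splicing factor genes linked to epithelial or mesenchymal exon choice differed in both directions. Of 26 tested 19 lay within 2-fold, 2 were higher and 5 lower (median -0.18). Over all tested genes 13.6% were higher and 9.25% lower. Celf4 had 267 counts in cEpiSC and 18 in mESC (3.67, 3.12 to 4.59) and Rbm20 had 106 and 27 (1.82, 1.27 to 2.56). Nova2, a factor best known in neurons, had 80 and 686 counts (-3.15, -3.53 to -2.85), and Srrm4, likewise neuronal, had 18 and 65 (-1.82, -2.77 to -1.16). The remaining lower genes, named to complete the group, were Qk (-1.64), Ptbp3 (-1.36) and Rbm47 (-1.02). Qk encodes Quaking, known for mesenchymal exon choices.

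The known RNA targets of these factors were described by level and by length. Of 21 genes with epithelial or mesenchymal splice forms 19 lay within 2-fold (median -0.14). Fgfr2, the FGF receptor gene whose alternative exons are the textbook target of Esrp proteins, had 163 counts in cEpiSC and 33 in mESC (2.16, 1.68 to 2.81). The deposited gene-level values also imply an effective transcript length, the length over which reads of a gene are counted, which moves when the estimated mix of isoforms moves. Relative to the median gene, the implied length of Fgfr2 was 1.39% longer in cEpiSC than in mESC (log2 0.020, with rounding of the TPM values worth up to 0.014), that of Ctnnd1 0.345% shorter and that of Enah 0.508% longer. All 21 genes lay inside the central 95% of 12576 genes with 10 or more counts in each library (log2 -0.13 to 0.10). A swap between exons of like size leaves this length unchanged, so it gives no view of such swaps. Gain or loss of an exon that is short beside its transcript moves the length little, so the range cannot decide on that either. Among the members, Ovol2 had the furthest value, 5.84% shorter in cEpiSC, and Zeb1 was 3.47% longer, also inside that range.

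Ovol2, the epithelial zinc finger factor gene (Entrez 107586, chromosome 2, 144305175 to 144332080, minus strand), had 118 counts in cEpiSC and 85 in mESC, or 5.77 and 4.39 CPM. The log2 ratio was 0.38, and the interval of -0.02 to 0.81 includes 0, so the libraries were not separated at this depth. Other epithelial transcription factor genes gave 2 higher, 5 lower and 5 within 2-fold of 12 tested (median -0.60). A minimum of 5 CPM left 9 of them, with 0 higher, 5 lower and a median of -1.09. Foxa1 had 47 counts in cEpiSC and 5 in mESC (2.74, 1.83 to 4.84). Elf3 stood at 30.7 CPM in cEpiSC and 146 CPM in mESC (-2.25, -2.38 to -2.13), Tfap2a at 3.13 and 17.9 CPM (-2.48, -2.92 to -2.13), and Klf4, also a naive pluripotency factor, at 80.2 and 313 CPM (-1.97). Grhl2, which encodes a grainyhead-like activator of junction genes and was named after its value was seen, had a log2 ratio of 0.27.

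**Figure D4:**
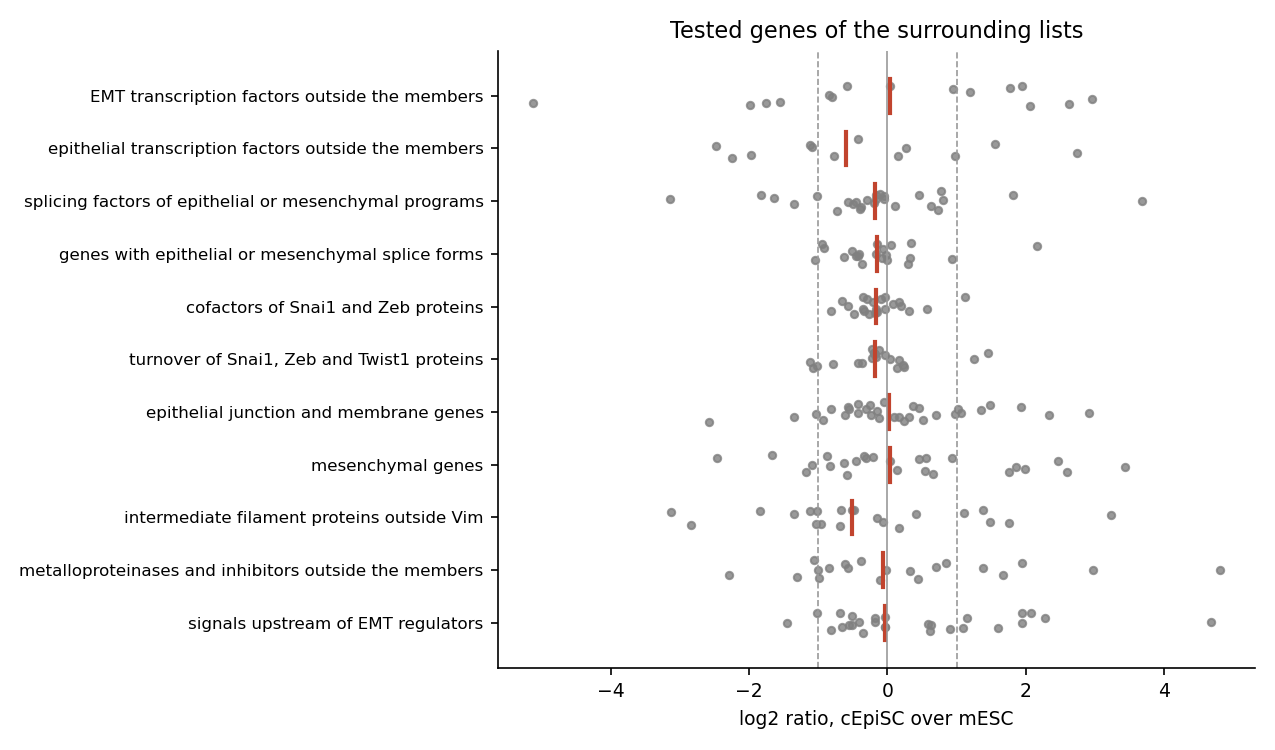
Log2 ratio of cEpiSC over mESC for the tested genes of 11 surrounding lists, 1 point per gene; red bars are list medians and dashed lines mark 2-fold. Points are spread vertically at random for legibility. Most lists hold genes past 2-fold on both sides, and cofactor genes cluster within 2-fold.

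Epithelial junction and membrane genes, some of them known targets of EMT repressors, also had no common direction. Of 33 epithelial junction and membrane genes listed, 32 were tested, of which 7 were higher in cEpiSC, 3 lower and 22 within 2-fold, with 16 above and 16 below 0 (median 0.02). Cdh3, for P-cadherin, stood at 54.65 TPM in cEpiSC and 7.47 TPM in mESC (2.91, 2.75 to 3.09). Epcam, for an epithelial adhesion molecule, stood at 192 TPM in cEpiSC and 39.3 TPM in mESC (2.33, 2.23 to 2.44). Cdcp1 had 143 and 34 counts (1.93), while Krt18, Pkp2, Marveld3 and Cldn3 completed the higher genes (1.49, 1.36, 1.06 and 1.02 in that order). Dsp, for the desmosome protein desmoplakin, stood at 3.58 TPM in cEpiSC and 21.7 TPM in mESC (-2.58, -2.75 to -2.42), followed by Krt19 (-1.34) and Krt8 (-1.04). Krt8 and Krt18 encode partners in 1 keratin filament, and their ratios had opposite signs. Cdh1, for E-cadherin, stood at 313 TPM in cEpiSC and 571 TPM in mESC (-0.82, -0.85 to -0.79), within 2-fold. Epcam made up 38.1% of the sum of Epcam and Cdh1 in cEpiSC and 6.45% in mESC.

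Promoters are shown next because Snai1 and Zeb proteins are known to bind the E-box CAGGTG in the promoters of junction genes. It was searched on both strands (it reads CACCTG on the other), with overlapping matches counted, in RefSeq windows of GRCm38.p6 from 250 bases before to 50 after each start site. A window was found for 6 of the 10 members, while Zeb1, Esrp1, Esrp2 and Mmp2 were not matched. The Ovol2 window lies inside the annotated gene, whose 5′ end is at 144332080, so that end was not searched. Shown are 3 members, of which Snai1 holds the E-box and Twist1 and Ovol2 do not, and 3 junction genes that hold it, of which Epcam was higher, Krt8 lower and Spint2 within 2-fold (log2 ratio 0.70). Each runs 5′ to 3′ on the gene's strand, with the E-box in capitals.
Snai1, chr2:167537945-167538244, plus strand: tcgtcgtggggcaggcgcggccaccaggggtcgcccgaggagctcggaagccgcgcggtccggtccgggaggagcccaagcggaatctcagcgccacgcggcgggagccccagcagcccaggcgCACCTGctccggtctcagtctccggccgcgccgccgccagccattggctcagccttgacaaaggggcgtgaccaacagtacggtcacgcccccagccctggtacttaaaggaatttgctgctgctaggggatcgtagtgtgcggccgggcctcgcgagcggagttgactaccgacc
Twist1, chr12:33957421-33957720, plus strand: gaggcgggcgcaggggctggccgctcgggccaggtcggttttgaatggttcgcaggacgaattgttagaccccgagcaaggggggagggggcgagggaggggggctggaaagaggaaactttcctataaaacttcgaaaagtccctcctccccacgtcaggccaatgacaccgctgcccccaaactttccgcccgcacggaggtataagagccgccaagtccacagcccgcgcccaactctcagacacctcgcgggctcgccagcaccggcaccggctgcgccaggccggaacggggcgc
Ovol2, chr2:144331313-144331612, minus strand: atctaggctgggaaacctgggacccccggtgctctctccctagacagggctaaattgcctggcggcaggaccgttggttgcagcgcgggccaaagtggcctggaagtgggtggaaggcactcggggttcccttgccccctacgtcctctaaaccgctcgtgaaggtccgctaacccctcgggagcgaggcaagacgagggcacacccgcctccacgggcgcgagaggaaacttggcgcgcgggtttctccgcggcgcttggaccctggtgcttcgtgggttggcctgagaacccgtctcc
Epcam, chr17:87635729-87636028, plus strand: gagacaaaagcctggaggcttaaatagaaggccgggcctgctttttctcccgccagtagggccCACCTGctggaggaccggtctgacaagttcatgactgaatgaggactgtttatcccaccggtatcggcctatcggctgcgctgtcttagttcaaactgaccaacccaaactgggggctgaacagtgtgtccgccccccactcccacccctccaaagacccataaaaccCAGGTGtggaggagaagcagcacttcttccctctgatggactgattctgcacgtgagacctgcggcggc
Krt8, chr15:102004293-102004592, minus strand: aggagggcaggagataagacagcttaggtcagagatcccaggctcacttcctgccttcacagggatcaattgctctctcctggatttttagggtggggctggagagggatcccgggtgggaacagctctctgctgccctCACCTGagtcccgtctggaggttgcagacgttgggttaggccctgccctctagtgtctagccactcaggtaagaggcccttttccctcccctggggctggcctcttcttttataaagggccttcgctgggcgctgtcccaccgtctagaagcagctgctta
Spint2, chr7:29281928-29282227, minus strand: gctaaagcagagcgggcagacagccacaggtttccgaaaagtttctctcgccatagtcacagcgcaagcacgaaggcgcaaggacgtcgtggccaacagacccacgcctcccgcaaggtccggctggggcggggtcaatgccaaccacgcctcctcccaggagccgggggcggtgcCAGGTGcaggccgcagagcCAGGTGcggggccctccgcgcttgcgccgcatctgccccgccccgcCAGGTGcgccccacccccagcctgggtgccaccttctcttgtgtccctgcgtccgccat

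The E-box was far more common in windows of junction genes than in those of the members or of all genes. Of 22 junction genes with a window 19 held it (86.4%), all but Jup, Spint1 and Tjp1, against 2325 of 10578 tested genes (22.0%). Cdh1, Cdh3, Pkp2 and Krt19 are not among the 22. Over all 32851 windows of the RefSeq table, 20.2% held it. Of the 6 members with a window, Snai1 alone held it, 126 bases before the start. Epcam held it 187 and 19 bases before the start, and Spint2 74, 55 and 9 bases before. It was found in 1 of 20 mesenchymal genes and in 1 of 13 further EMT transcription factor genes. High shares were not limited to junction genes: 5 of 8 trophoblast and 4 of 8 naive markers with a window held it. Of fibroblast markers 0 of 7 did. The junction list was drawn up from genes known in epithelia, some of them studied as targets of these repressors, so its share is a description of that list. Of the 19 holders 4 were higher in cEpiSC (Epcam, Cdcp1, Krt18 and Cldn3), 2 lower (Dsp and Krt8) and 13 within 2-fold. Among all 2325 tested genes that held it, 371 were higher, 254 lower and 1700 within 2-fold. Among tested genes with a window that lacked it, 993 were higher, 675 lower and 6585 within 2-fold. A match gives letters only and says nothing on binding in these cells.

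**Figure D5:**
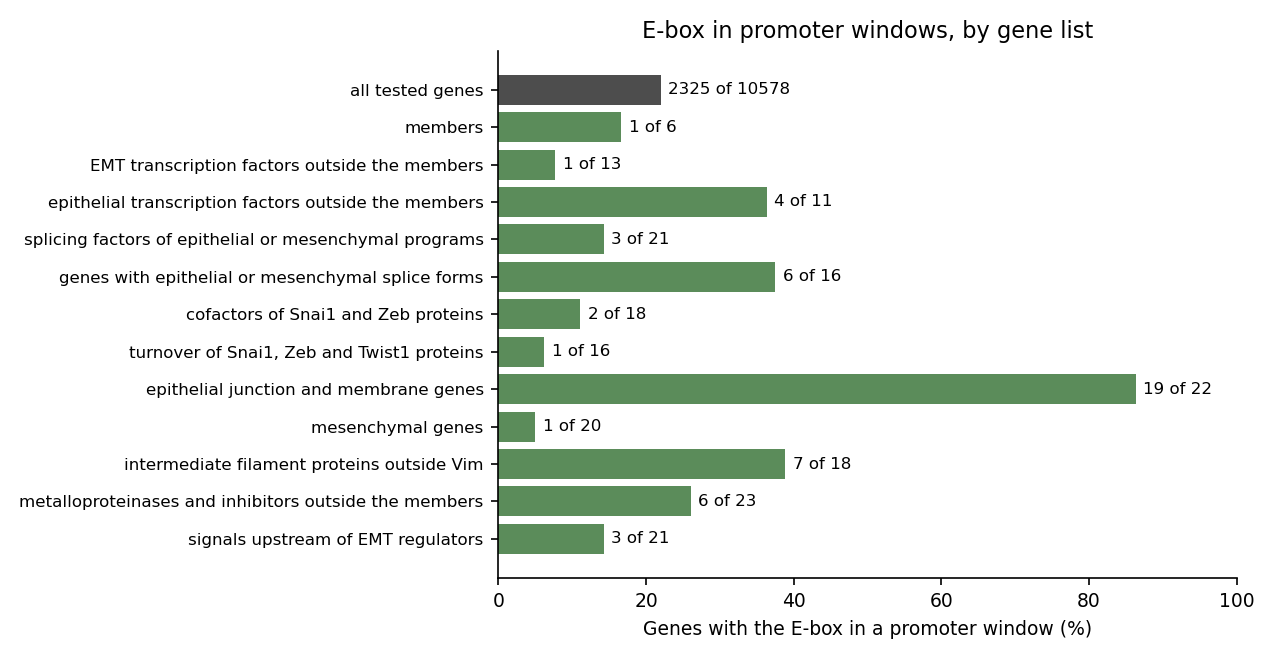
Share of genes with at least 1 E-box in a promoter window, in percent on an axis from 0, for all tested genes (dark bar), the members and 11 lists; counts stand beside the bars. Epithelial junction and membrane genes stand at 86.4%, all tested genes at 22.0% and mesenchymal genes at 5%.

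Vim, the intermediate filament gene most used as a mesenchymal marker (Entrez 22352, chromosome 2, 13574311 to 13582826, plus strand), was abundant in both states. It had 2615 counts in cEpiSC and 3374 in mESC, 128 and 174 CPM, and stood at percentile 93.1 of listed genes by TPM in cEpiSC and 95.1 in mESC. It was 1.36-fold lower in cEpiSC, within 2-fold (-0.45, -0.52 to -0.37). Of 34 other mesenchymal genes 25 were tested, of which 6 were higher, 4 lower and 15 within 2-fold (median 0.03). Among those at 5 CPM or more in 1 library the balance turned, with 2 higher, 4 lower and a median of -0.51. Fn1, for the matrix protein fibronectin, stood at 137 TPM in cEpiSC and 452 TPM in mESC (-1.67, -1.70 to -1.64), and Ddr2, a collagen receptor gene, had 53 and 284 counts (-2.46, -2.95 to -2.08). Cells were plated on fibronectin for conversion, and a link of this to the Fn1 values was not tested. Among the higher genes were Tpm2, a tropomyosin gene (520 and 80 counts, 2.59, 2.28 to 2.98), Col6a2 (21 and 2, 2.47, 1.28 to 6.45), and the actin-binding gene Tagln (43 and 2, 3.43, 2.40 to 7.44), whose reads were partly shared with other loci. Cdh2, for the N-cadherin that often replaces E-cadherin in EMT, had 40 counts in cEpiSC and 25 in mESC (0.56, -0.16 to 1.38), a difference not detectable at this depth.

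Of the matrix metalloproteinase genes, Mmp2 was higher in cEpiSC and Mmp14 was within 2-fold. Mmp2 encodes gelatinase A, a secreted enzyme that cleaves basement membrane collagen (Entrez 17390, chromosome 8, 92827290 to 92853421, plus strand). It had 1324 counts in cEpiSC and 169 in mESC, or 64.7 and 8.73 CPM, and was 7.41-fold higher in cEpiSC (2.87, 2.66 to 3.13; percentile 97.2 of tested genes). Mmp14 encodes a membrane-bound enzyme that activates pro-Mmp2 with Timp2 as adaptor (Entrez 17387, chromosome 14, 54431598 to 54442456, plus strand). It had 258 counts in cEpiSC and 395 in mESC, 12.6 and 20.4 CPM, with a log2 ratio of -0.69 (-0.93 to -0.47). Mmp2 made up 86.4% of their summed TPM in cEpiSC (84.8 to 88.0) and 34.7% in mESC (30.6 to 39.0). Timp2 had 83 counts in cEpiSC and 57 in mESC (0.45, -0.04 to 0.97), not separated at this depth.

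Of 20 other metalloproteinase, inhibitor and processing genes tested, 5 were higher, 4 lower and 11 within 2-fold (median -0.07). Mmp25, for a membrane-anchored enzyme, had 442 counts in cEpiSC and 13 in mESC (4.81, 4.22 to 5.93), a larger ratio than that of Mmp2. Mmp9, for gelatinase B, had 147 and 16 (2.97, 2.37 to 3.96), and the proteoglycan gene Spock2 had 881 and 215 (1.94, 1.74 to 2.18). Mmp23 (1.67) and Timp3 (1.38) completed the higher genes. The lower genes were Mmp19, with reads partly shared with other loci (26 and 128 counts, -2.29, -3.05 to -1.76), Mmp17, with reads likewise shared (-1.07), Pcsk6 (-1.31) and Cd63 (-1.001).

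Markers of the states and of other cell types give the setting of these values. All 12 primed or formative markers were higher in cEpiSC and 7 of 12 naive markers lower. These lists too were chosen with earlier results of these data known, so their counts are no independent check of the states. Some markers were also counted in other lists, among them Cdh3, Lef1, Klf4, Gsc, Foxq1, Gata3 and Wnt3. Of 7 genes listed as linked to pluripotency in both states 4 were higher (Utf1, Epcam, Tdgf1 and Lin28a), 0 lower and 3 within 2-fold (median 1.21). Epcam was also counted among the junction genes. Pou5f1, for Oct4, was among the 3 within 2-fold, at 922 CPM in cEpiSC and 841 CPM in mESC (0.13). Fibroblast markers, which bear on Vim, Twist1 and Mmp2, summed to 70.1 TPM over 12 genes in cEpiSC and 102 TPM in mESC. Fbln1 made up most of both sums (62.1 TPM in cEpiSC and 95.8 in mESC). Of the 12, 4 were tested, with Thy1 higher (94 and 21 counts, 1.98) and Pdgfrb lower (120 and 244 counts, -1.09), while Prrx1 and Postn had 0 counts in both libraries, and Lum, Dcn, S100a4 and Col3a1 had 0 to 2. Primitive endoderm markers, which bear on Mmp2, summed to 214 TPM in cEpiSC and 377 TPM in mESC, with 5 of 13 tested genes higher and 4 lower. Of these 13 genes 9 had a log2 ratio above 0 and 4 below (median 0.46), so the sum and most single genes differed in opposite directions. Primitive streak and mesendoderm markers, which bear on Snai1, summed to 20.1 TPM in cEpiSC and 99.0 TPM in mESC, with 3 of 8 higher and 4 lower. Trophoblast markers, which bear on Esrp1 and Ovol2, summed to 82.0 TPM in cEpiSC and 65.4 TPM in mESC, with 5 of 7 tested genes higher, the largest ratios being those of Gcm1 (49 and 0 counts, at least 15.4-fold higher against the floor of 3 counts), Hand1 (38 and 3 counts), Esx1 (797 and 139 counts) and Gata3 (60 and 18 counts), and with Cdx2 at 0 and 5 counts. Neural ectoderm markers had 1 of 4 higher and 2 lower. The part of other cell types in the members' ratios was not tested.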

How the data were processed

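For 1 cEpiSC and 1 mESC library, a gene table was analysed whose columns are, per the file headers, estimated read counts, TPM and FPKM. The estimated counts were deposited without scaling, and 11.9% of genes in cEpiSC and 11.3% in mESC have a count over 0.005 away from a whole one. The deposited TPM and FPKM values were scaled by the authors for transcript length and depth. HISAT2, Bowtie2, RSEM 1.3.1, DESeq2 1.34.0 and GRCm38.p6 are named in the submitters' processing notes. What each tool did, and with which annotation and filters, is not given in the sources used here. Per the labels' protocols, dUTP marked the second strand, but use of strand in counting is not stated.

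After rounding, counts were scaled by TMM (edgeR 4.0.16, R 4.3.3), which gave factors of 1.03 in cEpiSC and 0.975 in mESC. A prior count of 2 entered each log2 ratio (cEpiSC over mESC); folds and Clopper-Pearson 95% intervals used none. Genes at 1 CPM or more in 1 library were ranked by size with no test, since 1 library per group leaves no residual degrees of freedom. Intervals, and the floor of 3 counts, cover counting error only, since PCR copies without identifiers are not separate molecules. Coordinates came from a RefSeq table of GRCm38.p6, strand and exon overlaps from GENCODE vM21. The members and 19 lists were chosen with earlier results of these data known. Named genes are the members, up to 4 genes per list with the largest ratios past 2-fold (the 2 most abundant where none was), and Cdh1, Cdh2, Epcam, Fn1, Timp2, Ctbp2, Fgfr2 and Pou5f1; others were named to complete groups or after their values were seen. Alternatives were DESeq2 1.42.0 size factors, library totals, no filter, a 5 CPM minimum, a prior count of 0.5 or 5, TPM and FPKM with a pseudocount of 1, and centring on deciles of implied length. No column of another sample was present (0). The values of 1 gene that the naming rule picks are not reported here.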

Additional observations from a re-analysis of the deposited data

How the results depend on the processing

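Under the 9 alternatives every tested member kept the sign of its ratio wherever it stayed tested; a filter at 5 CPM removed Snai1 and Twist1. Log2 ratios ranged from 2.197 to 3.41 for Esrp1, 2.59 to 2.95 for Mmp2, 0.80 to 1.25 for Twist1 and -1.31 to -0.98 for Esrp2. The 2-fold call of Twist1 was lost with TPM and FPKM, and that of Esrp2 with FPKM, which left 2 members higher in each of these settings and 0 lower with FPKM. With TPM Esrp2 kept its call (-1.18). Before the pseudocount of 1 was added, its FPKM was 2.43 in cEpiSC and 5.77 in mESC, and the cause of the loss with FPKM was not tested. Over all tested genes, 1796 were higher and 1225 lower. The higher count became 2712 without a filter, 970 at 5 CPM, 1090 with TPM and 945 with FPKM, and the lower count 680 with FPKM. Of 342 list counts 290 stayed within 1.5 times the value given, and 152 of 171 list medians moved by 0.25 or less. No paired analysis was possible because each state has 1 library, and for the same reason no library could be left out. At this depth the intervals of Snai1 and Ovol2 include 0, that of Twist1 reaches below 2-fold, and Zeb2 is under the floor.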

Other observations

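Intermediate filament genes other than Vim differed in both directions. Of 21 tested, 5 were higher in cEpiSC, 7 lower and 9 within 2-fold (median -0.51 on the log2 scale). Prph, which encodes the neuronal filament protein peripherin, had 356 counts in cEpiSC and 34 in mESC (3.24, 2.80 to 3.86). Krt42, a keratin gene, had 55 and 471 (-3.13, -3.61 to -2.77), Nefm, a neurofilament gene, had 32 and 229 (-2.84, -3.50 to -2.38), and Dst, a linker gene with partly shared reads, had 1066 and 3621 (-1.84, -1.94 to -1.75). Des, for desmin, the filament protein most like vimentin in muscle, had 891 and 389 counts (1.11) and was named after its value was seen. Vim itself exceeded the sum of the other members in TPM in both libraries.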
